A study of Homo sapiens with 24 samples.

Results

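The mitosis genes described here are 40 genes of the G2 phase and of mitosis, chosen by name from the rows of a table of read counts for 26485 genes. All 40 were in the table, and all 40 passed the filter on low counts that left 14654 genes for testing. They were followed in the human neuroblastoma cell line SH-SY5Y, in 24 RNA-seq libraries that fall into 8 groups of 3. The cells were given copper chloride (CuCl2) for 4 h, against cells left untreated for 4 h. At 24 h the groups were dextran-catechin (DC) with interferon gamma (IFN-γ), TEPA with IFN-γ, IFN-γ alone, DC alone and TEPA alone, against untreated cells. DC and TEPA, a polyamine salt, are copper chelators, and IFN-γ is a cytokine that induces antiviral and antigen-presentation genes. The labels give no dose, and whether the replicates came from separate cultures is not stated, so p-values measure the spread between these libraries, which may be technical. The study set out to learn how the copper supply of neuroblastoma cells alters them. The comparisons of the 40 genes show how far the transcripts of dividing cells moved with added copper, with copper chelation and with IFN-γ.

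A cell enters mitosis when cyclin B bound to the kinase CDK1 becomes active. CDK1 and the Polo and Aurora kinases then drive chromosome condensation, spindle assembly and attachment of kinetochores to microtubules. The spindle assembly checkpoint holds the cell until every kinetochore is attached, after which the anaphase-promoting complex degrades securin and cyclin B and the cell divides. Most of these genes are transcribed late in the cell cycle, so in RNA of a bulk culture their level follows the share of cells in G2 and mitosis. In these libraries fewer such cells and less RNA per cell cannot be told apart.

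The late expression of such genes is known to depend on a cell cycle genes homology region (CHR) near the start site, bound by MuvB complexes, and on CCAAT boxes, bound by NF-Y. RefSeq promoter windows (GRCh38.p14, 250 bases before to 50 after the start) were found for 33 of the 40 members. The CHR was searched as the letters TTTGAA and TTTAAA and the second motif as CCAAT, each on both strands; neighbouring motifs can share a base at their ends. One or both CHR forms stood in 28 of 33 windows (84.8%), against 24.3% of all 27305 windows and 16.4% of the 10804 windows of tested genes. Within 50 bases of the start a CHR stood in 23 of 33 member windows (69.7%), against 7.75% of all windows. CCAAT was found in 24 of 33 (72.7%), against 35.7% of all. Of the 8 members that passed the test in at least 2 of the comparisons below, 7 had a window. Their sequences from 100 bases before to 50 after the start are shown, followed by those of AURKB and CDC25C, whose windows hold no CHR. Capitals mark the CHR and CCAAT letters on either strand.
CCNB2, chr15:59105046-59105195, strand +: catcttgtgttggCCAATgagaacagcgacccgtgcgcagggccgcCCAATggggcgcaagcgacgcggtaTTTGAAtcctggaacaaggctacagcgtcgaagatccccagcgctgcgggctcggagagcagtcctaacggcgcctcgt
DLGAP5, chr14:55191536-55191685, strand -: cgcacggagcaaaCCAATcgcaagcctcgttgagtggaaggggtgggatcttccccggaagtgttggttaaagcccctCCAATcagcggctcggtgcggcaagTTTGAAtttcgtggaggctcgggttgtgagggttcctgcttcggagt
NUSAP1, chr15:41332781-41332930, strand +: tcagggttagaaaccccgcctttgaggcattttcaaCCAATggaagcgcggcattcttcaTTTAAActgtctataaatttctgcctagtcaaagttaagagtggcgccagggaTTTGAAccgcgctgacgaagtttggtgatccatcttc
KIF20A, chr5:138179012-138179161, strand +: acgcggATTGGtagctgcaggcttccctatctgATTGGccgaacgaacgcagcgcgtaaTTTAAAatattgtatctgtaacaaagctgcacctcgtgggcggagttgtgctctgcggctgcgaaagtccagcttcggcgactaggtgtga
CENPA, chr2:26785956-26786105, strand +: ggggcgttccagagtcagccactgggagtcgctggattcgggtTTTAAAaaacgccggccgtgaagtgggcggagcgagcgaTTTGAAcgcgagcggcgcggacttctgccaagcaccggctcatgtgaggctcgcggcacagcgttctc
CENPF, chr1:214603095-214603244, strand +: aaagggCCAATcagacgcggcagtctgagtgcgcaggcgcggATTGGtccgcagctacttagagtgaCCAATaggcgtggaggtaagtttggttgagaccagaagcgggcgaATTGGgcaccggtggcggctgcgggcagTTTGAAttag
BUB1B, chr15:40160969-40161118, strand +: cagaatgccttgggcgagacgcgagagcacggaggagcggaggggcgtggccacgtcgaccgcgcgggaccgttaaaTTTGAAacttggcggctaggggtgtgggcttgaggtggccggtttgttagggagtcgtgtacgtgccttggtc
AURKB, chr17:8210176-8210325, strand -: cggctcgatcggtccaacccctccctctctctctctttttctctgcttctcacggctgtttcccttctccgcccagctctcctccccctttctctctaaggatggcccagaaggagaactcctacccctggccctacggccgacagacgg
CDC25C, chr5:138338306-138338455, strand -: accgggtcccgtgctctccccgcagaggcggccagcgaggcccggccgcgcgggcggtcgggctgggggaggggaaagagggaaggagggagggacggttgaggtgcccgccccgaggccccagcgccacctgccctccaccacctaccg
The windows of CCNB2, DLGAP5, NUSAP1, KIF20A and CENPF carry CCAAT boxes beside a CHR in the stretch shown, whereas BUB1B and CENPA show CHR letters alone there. A CHR stood in 12 of the 12 windows of members that passed the test with IFN-γ and in 6 of 7 windows of those that passed with copper. It stood in 13 of the 17 windows of members that passed no test. These matches describe letters and are no evidence of a bound factor.

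All 40 members were well expressed. Averaged over the 24 libraries and divided by transcript length, TOP2A, the topoisomerase that untangles sister chromatids, was highest at 191 CPM (counts scaled to a common library size) per kb. CENPF, a large kinetochore protein, followed at 122 and CDK1 at 114 CPM per kb. The lowest were CDC25C, a phosphatase that activates CDK1, at 12.6 CPM per kb and INCENP, the scaffold of the chromosomal passenger complex, at 9.8 CPM per kb. On the CPM scale, in which libraries were scaled with TMM factors, the highest library of a member exceeded its lowest by 2.2 times for TOP2A and 2.08 times for CENPF.

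Library totals ran from 24569980 to 35372442 counts. Neuroblastoma markers (9 genes, all in the table, among them HAND2, GATA3, ISL1, DBH, TH, CHGA and STMN2) summed to 1840 to 2510 CPM. Of the markers of other cells, CD3E, KRT5 and KRT14 were at 0 in every library, and the Schwann and epithelial list summed to 2.98 to 4.74 CPM. The leukocyte list summed to 0.56 to 11 CPM. The fibroblast and endothelial list was higher, at 479 to 725 CPM, so not all markers of other cells were low. Libraries differed along a trend with the GC content of genes. Each library's GC difference was computed from log2 levels relative to the mean of all libraries, as the median of genes over 60% GC minus the median of genes under 40%. It was -0.65, 0.8 and 1.35 in the copper libraries and -1.34, 0.65 and 1.38 in the 4 h control libraries, numbered 1, 2 and 3. At 24 h it averaged 0.46 ± 0.52 with IFN-γ and -0.71 ± 0.31 in the control (SD, n = 3 each). Members range from 35.3% to 59.6% GC (median 43.2%), so each comparison is also given from a fit in which the trend of every library was removed. Relative to the mean of 24 libraries, the mean log2 level of the 40 members was -0.08, -0.17 and -0.24 in the copper libraries, against 0.19, 0.02 and -0.01 in the 4 h control.

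**Figure D1:**
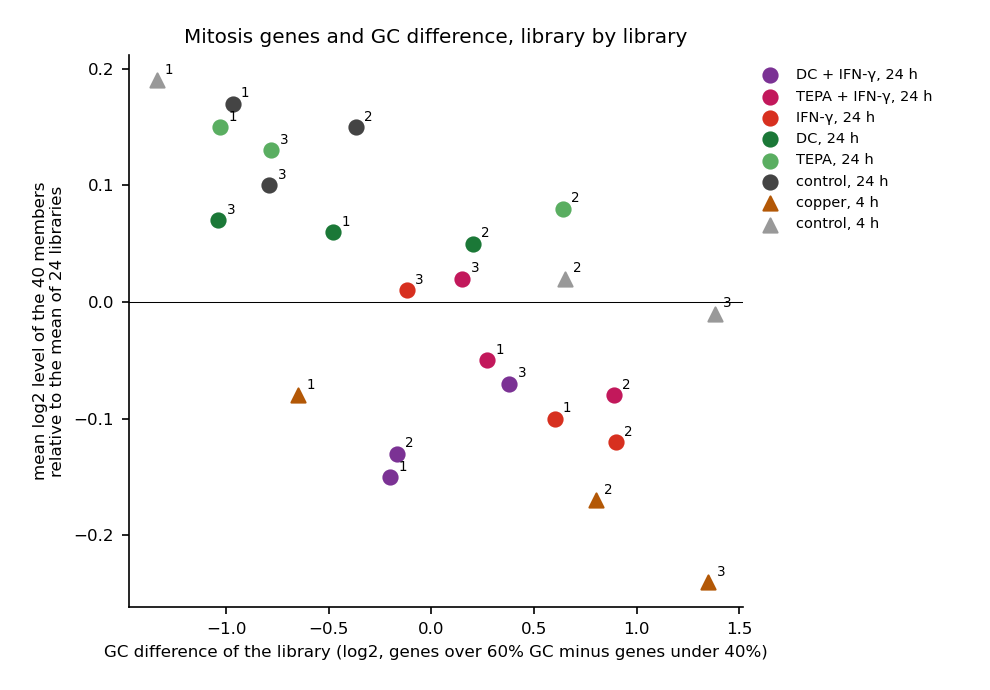
Each point is 1 library, with its replicate number: the horizontal axis is its GC difference (log2) and the vertical axis the mean log2 level of the 40 members relative to the mean of all 24 libraries. At a like GC difference the copper libraries 2 and 3 (-0.17 and -0.24) lie below control libraries 2 and 3 of 4 h (0.02 and -0.01).

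After 4 h of copper, 8 of the 40 members were lower and 0 were higher at an adjusted p under 0.05 (edgeR's quasi-likelihood test, Benjamini-Hochberg over 14654 genes). Among all genes 3.2% were called lower and 2.65% higher. The 8 were DLGAP5, BUB1B, BUB1, CENPA, AURKA, MKI67, KIF20A and PTTG1, with log2 fold changes of -0.71 to -0.27 and adjusted p of 0.000526 to 0.0331 (edgeR). The 32 that did not pass lay between -0.50 and 0.16. The median over the 40 members was -0.29, against -0.02 over all genes, and 36 of 40 had a negative value. For the same 8 members no copper library reached the lowest control library, as was so for 6.83% of all genes on the lower side; no member lay wholly above.

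DLGAP5, a microtubule-binding protein that stabilises kinetochore fibres, had the largest change. Its level was 133, 108 and 96.9 CPM in the copper libraries, against 236, 163 and 152 CPM in the 4 h control libraries. Every copper library lay below every control library, with a difference of -0.71 on the log2 scale (SE 0.16, adjusted p = 0.00856 in edgeR). KIF20A, a kinesin of the central spindle needed for cytokinesis, showed the tightest values. It had 124, 129 and 124 CPM with copper and 151, 162 and 157 CPM in the control (log2 -0.32, SE 0.05, adjusted p = 0.000526 in edgeR).

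Of the mitotic kinases, AURKA, which matures centrosomes and builds the spindle, fell to 79.7 ± 8.68 CPM with copper, against 104 ± 11.4 CPM in the control (SD, n = 3 each; log2 -0.38, SE 0.09). PLK4, which starts centriole duplication, had -0.41 (SE 0.16, adjusted p = 0.174 in edgeR), and PLK1, which acts throughout mitosis, had -0.09 (SE 0.22). In the cyclin and CDK group, 0 of 6 members passed the test. CDK1 had 222, 163 and 149 CPM with copper and 322, 210 and 191 CPM in the control, so the groups overlapped (log2 -0.44, SE 0.17, adjusted p = 0.182 in edgeR). CCNB1 had -0.34 (SE 0.11, adjusted p = 0.0896), CCNB2 -0.08 (SE 0.11) and CDC25C 0.14 (SE 0.11).

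Of the 5 checkpoint members 2 fell. BUB1B, the checkpoint protein that inhibits the anaphase-promoting complex, had 199, 164 and 150 CPM with copper and 306, 222 and 204 CPM in the control (log2 -0.51, SE 0.14). BUB1, a checkpoint kinase, had 124, 110 and 97.3 CPM with copper and 175, 137 and 128 CPM in the control (log2 -0.41, SE 0.10). The groups did not overlap in either gene. BUB1 did not pass the test without copper library 3 (adjusted p = 0.0568), nor BUB1B without copper library 2, copper library 3 or control library 1 (highest adjusted p = 0.108, edgeR). BUB3, the partner of both, had -0.05 (95% interval -0.25 to 0.15).

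At the kinetochore CENPA, the histone that marks centromeres, fell to 25, 22.7 and 22.2 CPM with copper, against 35.5, 27.9 and 28.4 CPM in the control (log2 -0.39, SE 0.09, adjusted p = 0.00952 in edgeR). CENPF had -0.36 (SE 0.14, adjusted p = 0.169), and NDC80, part of the microtubule anchor, had the highest value of the 40 at 0.16 (SE 0.15). MKI67, which coats mitotic chromosomes and is used as a proliferation marker, had 733, 613 and 678 CPM with copper and 889, 842 and 816 CPM in the control (log2 -0.33, SE 0.08). In CENPA and MKI67 the copper libraries all lay below the control libraries. PTTG1, the securin that inhibits separase, had 93.2 ± 7.1 CPM with copper and 112 ± 4.9 CPM in the control (SD, n = 3 each; log2 -0.27, SE 0.07). Without copper library 3 or control library 2, PTTG1 did not pass (highest adjusted p = 0.0779, edgeR). Of the 4 cytokinesis genes 0 passed, and 3 were lower with the GC trend removed. ECT2, the activator of RhoA at the division plane, had 225, 169 and 155 CPM with copper and 354, 221 and 201 CPM in the control (log2 -0.50, SE 0.17, adjusted p = 0.109 in edgeR). ANLN, a scaffold of the contractile ring, had 231, 188 and 169 CPM with copper and 328, 242 and 221 CPM in the control (log2 -0.43, SE 0.14, adjusted p = 0.0762). Library 1 was the highest of its group in both, and the groups overlapped. The passenger kinase AURKB was low, with 11.9, 24.6 and 26.5 CPM with copper and 11.9, 32.3 and 40.3 CPM in the control (log2 -0.43, SE 0.39). FOXM1, a transcription factor of G2 and M genes, had -0.08 (SE 0.22).

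**Figure D2:**
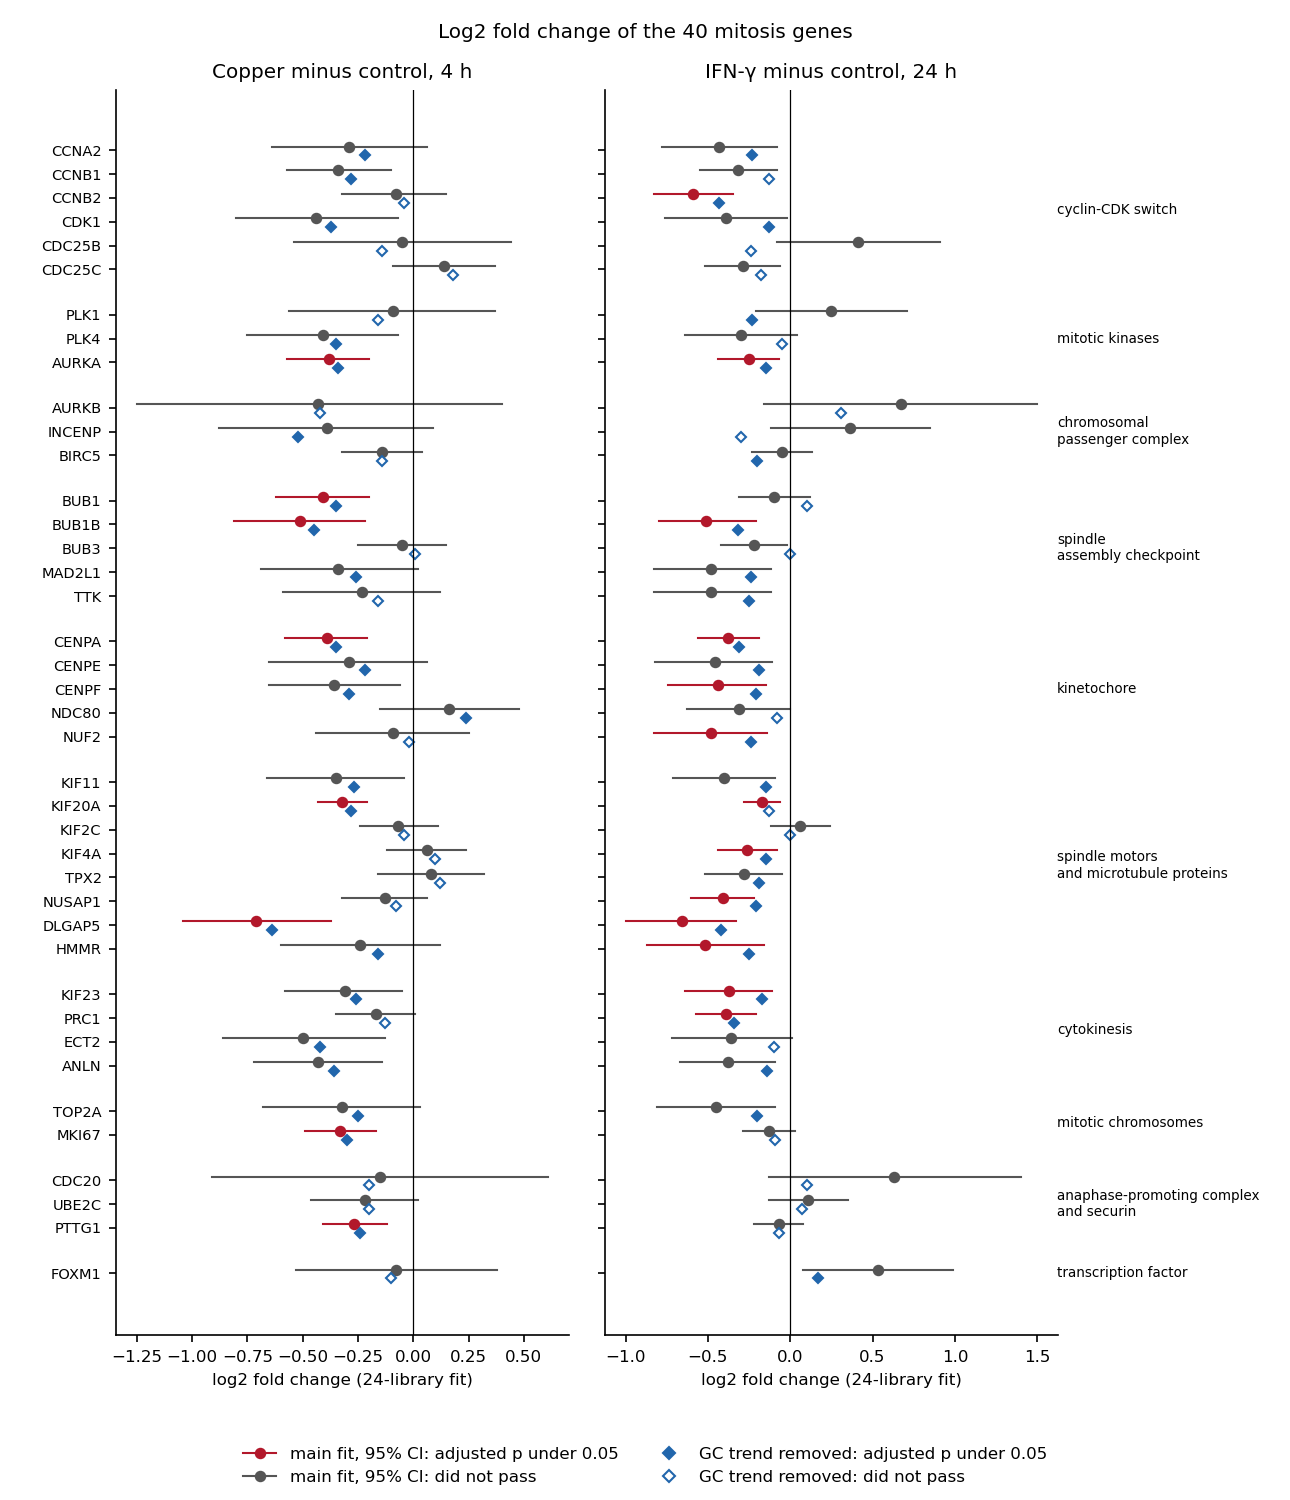
Log2 fold changes of the 40 members, grouped by role, with copper at 4 h (left) and with IFN-γ at 24 h (right), each against its control. Circles with bars give the main fit and its 95% interval, diamonds the fit with the GC trend removed; red circles and filled diamonds passed an adjusted p under 0.05, which 8 members did with copper and 13 with IFN-γ in the main fit.

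Libraries with the same number deviated together in both 4 h groups and were also set against each other in pairs. Not every library deviated most like its own number in the other group, so the pairing is uncertain. Members were lower with copper in 31, 34 and 35 of 40 cases in pairs 1, 2 and 3, with medians of -0.30, -0.23 and -0.23 on the log2 scale. The GC difference between the libraries of a pair was 0.69, 0.15 and -0.03. Lower in all 3 pairs were 29 of 40 members, against 29.1% of all genes. CDC25C, NDC80, KIF4A and TPX2 were higher in all 3. DLGAP5 differed by -0.83, -0.59 and -0.65 and AURKA by -0.39, -0.37 and -0.39 in the 3 pairs. The count of 8 was 5 without copper library 3, 15 without copper library 1 and 16 without control library 3. In a fit of the 6 libraries of the comparison alone 0 members passed (edgeR), and with the replicate number as a block in those 6 libraries 22 passed. The shares of all genes called in these alternatives were not counted. In the fit of all libraries 16 members were lower at an unadjusted p under 0.05 (edgeR), beside 2367 of all 14654 genes in either direction.

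With the GC trend removed, 22 members were lower with copper and 1, NDC80, was higher (0.24, SE 0.04), while 10.9% of all genes were called lower and 10.1% higher. All 8 members of the main fit were among the 22. They took in 3 of the 6 cyclin-CDK genes and 3 of the 4 cytokinesis genes, of which 0 passed in the main fit. CDK1 was then at -0.37 (SE 0.04), ECT2 at -0.42 (SE 0.04) and TOP2A at -0.25 (SE 0.04). A list of RNA-quality and stress transcripts had higher sums with copper. Its 6 measured genes summed to 225 to 268 CPM with copper and 162 to 197 CPM in the control, and 0 of the 5 tested passed. Of the 8 tested neuroblastoma markers STMN2 was lower with copper (-0.55, SE 0.13). The part of these genes in the result was not tested.

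**Figure D3:**
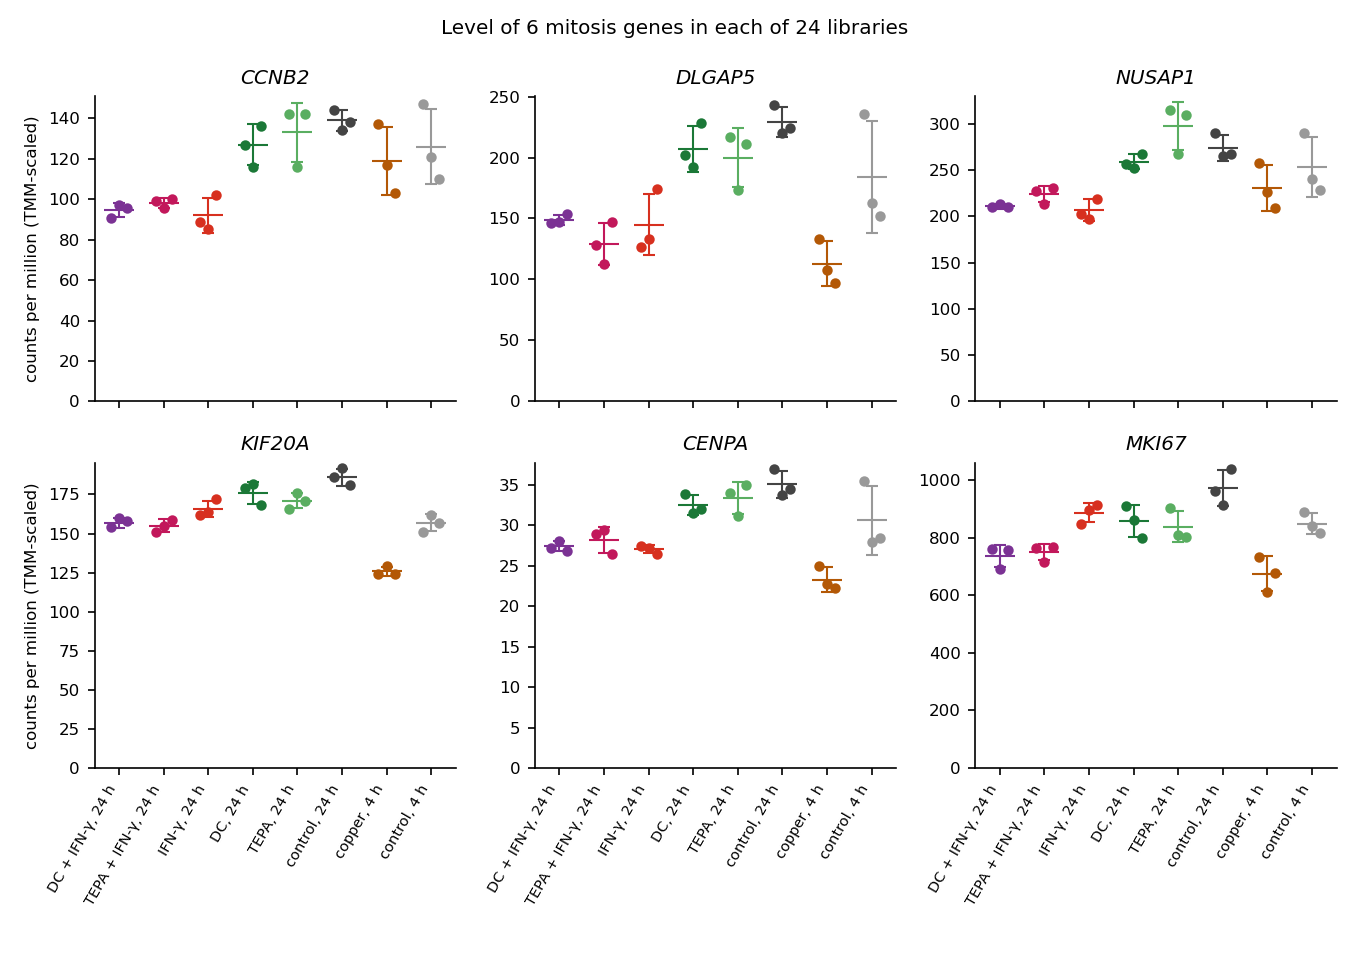
CPM of 6 members in each library, with the 3 points of a group in the order of their replicate numbers, and bars for the group mean and SD. DLGAP5, KIF20A, CENPA and MKI67 are lower in all 3 copper libraries than in all 3 control libraries of 4 h, and CCNB2, DLGAP5, NUSAP1 and CENPA are lower in all 3 libraries with IFN-γ alone than in all 3 control libraries of 24 h.

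After 24 h of IFN-γ, 13 of the 40 members were lower and 0 higher than in untreated cells, whereas 8.8% of all genes were called lower and 10% higher. The 13 were DLGAP5, CCNB2, HMMR, BUB1B, NUF2, CENPF, NUSAP1, PRC1, CENPA, KIF23, KIF4A, AURKA and KIF20A, at -0.66 to -0.17 with adjusted p of 0.000813 to 0.0489 (edgeR). The 27 that did not pass lay between -0.48 and 0.67. The median over the members was -0.32, against 0.01 over all genes. For 29 members every IFN-γ library lay below every control library, and for 4 above, against 27.4% and 29.7% of all genes. The 3 libraries of each group therefore lay apart for many genes besides the members.

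CCNB2, the cyclin B of the Golgi region that activates CDK1, showed the firmest change. It had 88.9, 85.5 and 102 CPM with IFN-γ and 144, 134 and 138 CPM in the control, and the groups did not overlap (log2 -0.59, SE 0.11, adjusted p = 0.000813 in edgeR). CCNB1, the main mitotic cyclin, had 204, 195 and 249 CPM with IFN-γ and 277, 271 and 260 CPM in the control (log2 -0.32, SE 0.11, adjusted p = 0.0522 in edgeR). The groups did not overlap in that gene either, but it did not pass. DLGAP5 had 127, 133 and 174 CPM with IFN-γ and 243, 220 and 224 CPM in the control (log2 -0.66, SE 0.16, adjusted p = 0.00562).

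Among spindle proteins NUSAP1, which bundles microtubules near chromosomes, had 203, 197 and 219 CPM with IFN-γ and 290, 265 and 267 CPM in the control (log2 -0.41, SE 0.09, adjusted p = 0.003 in edgeR). HMMR, a spindle assembly protein, had 139, 129 and 156 CPM with IFN-γ and 217, 192 and 197 CPM in the control (log2 -0.52, SE 0.17). Every IFN-γ library lay below every control library in both genes. KIF4A, a chromosome-bound kinesin, had -0.26 (SE 0.09) and KIF20A -0.17 (SE 0.05). KIF20A had 162, 164 and 172 CPM with IFN-γ and 186, 192 and 181 CPM in the control. PRC1, which bundles the antiparallel microtubules of the midzone, had 288, 268 and 316 CPM with IFN-γ and 391, 389 and 364 CPM in the control (log2 -0.39, SE 0.09, adjusted p = 0.0032 in edgeR). KIF23, its midzone partner, was at -0.37 (SE 0.13). At the kinetochore CENPA had 27.5, 27.2 and 26.5 CPM with IFN-γ and 37, 33.8 and 34.5 CPM in the control (log2 -0.38, SE 0.09), with the groups well apart. CENPF, with 1140, 1150 and 1300 CPM under IFN-γ and 1680, 1470 and 1730 CPM in the control, was at -0.44 (SE 0.14), also without overlap.

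BUB1B had 177, 174 and 223 CPM with IFN-γ and 277, 269 and 268 CPM in the control (log2 -0.51, SE 0.14). AURKA had 93.2, 85.1 and 99.3 CPM with IFN-γ and 113, 114 and 104 CPM in the control (log2 -0.25, SE 0.09). The checkpoint gene and the kinase showed no overlap between groups.

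CCNB2, CENPA, NUSAP1, DLGAP5 and PRC1 passed in all 15 alternative fits, leave-one-out fits included. The other 8 did not: AURKA, BUB1B, CENPF, NUF2, KIF20A, KIF4A, HMMR and KIF23 each lost the call without IFN-γ library 1 and without IFN-γ library 2, with a highest adjusted p of 0.151 (AURKA, edgeR) over their alternatives. The count of 13 was 5 and 6 without IFN-γ library 1 and 2, 6 without control library 1 and 24 without IFN-γ library 3. DESeq2 called 23.

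MKI67 had 849, 898 and 914 CPM with IFN-γ and 963, 915 and 1040 CPM in the control, and did not pass (log2 -0.13, SE 0.08, adjusted p = 0.189 in edgeR). BUB1 had -0.10 (95% interval -0.31 to 0.12), PTTG1 -0.07 (-0.22 to 0.08) and UBE2C, the ubiquitin carrier of the anaphase-promoting complex, 0.11 (-0.13 to 0.35).

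The 6 members of highest GC content had positive values with IFN-γ that did not pass. AURKB, the kinase of the chromosomal passenger complex, had 24.7, 29.7 and 21.2 CPM with IFN-γ and 14.5, 20.6 and 12.4 CPM in the control (log2 0.67, SE 0.39). CDC20, the activator of the anaphase-promoting complex, had 75.4, 83.3 and 59.7 CPM with IFN-γ and 39.5, 59 and 42.4 CPM in the control (log2 0.63, SE 0.36). FOXM1 had 314, 345 and 283 CPM with IFN-γ and 200, 249 and 202 CPM in the control (log2 0.53, SE 0.22, adjusted p = 0.0841 in edgeR). In all 3 genes the IFN-γ libraries lay above the control libraries. CDC25B was at 0.41, INCENP at 0.36 and PLK1 at 0.25. Across the 40 members, the IFN-γ fold change and GC content had a Pearson r of 0.87 in the main fit and 0.28 with the trend removed; the members share their libraries, so r is a description. The 22 members at or under 45% GC had a median of -0.42 and the 18 above it -0.06.

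With the GC trend removed, 23 members were lower with IFN-γ and 1 higher, against 15.4% and 17.1% of all genes, and the medians on either side of 45% GC were -0.20 and -0.15. Of the 13 members of the main fit 12 passed again, KIF20A being the exception at -0.13 (SE 0.05, adjusted p = 0.0554 in edgeR). PLK1 turned to -0.23 (SE 0.06, adjusted p = 0.00674), and CDC25B and INCENP to -0.24 and -0.30. FOXM1 stayed positive at 0.17 (SE 0.06, adjusted p = 0.0298), as did CDC20 and AURKB at 0.10 and 0.31, which did not pass.

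**Figure D4:**
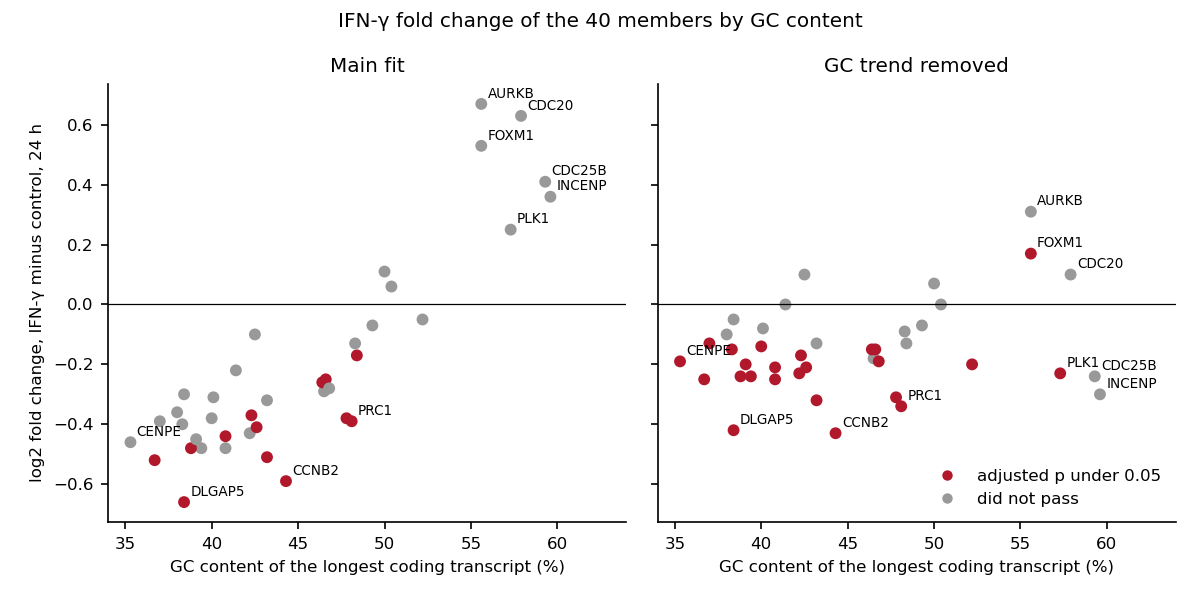
Log2 fold change of the 40 members with IFN-γ against their GC content (%), in the main fit (left) and with the GC trend of each library removed (right). Red points passed an adjusted p under 0.05; the 6 members of highest GC content that lie above 0 on the left spread to both sides of 0 on the right, with FOXM1 at 0.17 and PLK1 at -0.23.

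The neuroblastoma markers summed to 2010 to 2150 CPM with IFN-γ and 2280 to 2320 CPM in the control, and of the 8 tested, STMN2, a neuronal tubulin-binding protein, was lower (-0.63). Of the 5 tested RNA-quality and stress transcripts, HIST1H1C (1.65) and NEAT1 (0.60) were higher. A leukocyte list had higher sums with IFN-γ. Its 6 genes summed to 5.63 to 7.99 CPM with IFN-γ and 0.56 to 1.93 CPM in the control, of which CD3E was at 0; of the 2 tested, CD68, a lysosomal protein of macrophages, rose (log2 3.34, SE 0.60). The fibroblast and endothelial list, all 8 of it in the table, summed to 564 to 690 CPM with IFN-γ and 491 to 573 CPM in the control, with PDGFRB higher (1.15) and COL1A2 lower (-0.82) of the 6 tested. Their part in the mitosis gene result was not tested.

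IFN-γ was also added to cells that received a chelator, and those comparisons share no library with the one above. With DC present, DC + IFN-γ against DC, 3 members were lower and 0 higher (CCNB2, NUSAP1 and KIF20A), with 3.66% and 6.16% of all genes. CCNB2 had 90.9, 97.1 and 95.8 CPM with DC + IFN-γ and 127, 116 and 136 CPM with DC (log2 -0.42, SE 0.11, adjusted p = 0.018 in edgeR). NUSAP1 had -0.29 (SE 0.09, adjusted p = 0.0407) and KIF20A -0.17 (SE 0.05, adjusted p = 0.0448), and DLGAP5 just missed at -0.48 (SE 0.16, adjusted p = 0.0629). CENPE, a kinetochore motor that moves chromosomes to the spindle equator, had 169, 168 and 162 CPM with DC + IFN-γ and 218, 199 and 238 CPM with DC (log2 -0.39, SE 0.17, adjusted p = 0.173). Leaving out 1 library, KIF20A lost the call without DC library 1 or 2 or any DC + IFN-γ library, and NUSAP1 lost it without DC library 3 or DC + IFN-γ library 1. Without the last named library 1 member passed. For 27 members every DC + IFN-γ library lay below every DC library, against 16.3% of all genes. Removing the GC trend left 21 members lower and 0 higher, against 10% and 13% of genes. The neuroblastoma markers summed to 2030 to 2130 CPM with DC + IFN-γ and 2310 to 2330 CPM with DC. The leukocyte list summed to 4.88 to 6.74 CPM with DC + IFN-γ and 1.31 to 2.88 CPM with DC, and CD68 rose (log2 2.02, SE 0.56). What part these markers have in the result was not tested.

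With TEPA present, TEPA + IFN-γ against TEPA, 3 of 40 members were lower and 0 higher (CCNB2, NUSAP1 and DLGAP5). Among all genes 6.89% were called lower and 7.28% higher, so in this fit members were called lower about as often as genes in general. CCNB2 had 99, 95.4 and 100 CPM with TEPA + IFN-γ and 142, 116 and 142 CPM with TEPA (log2 -0.44, SE 0.11, adjusted p = 0.0101 in edgeR). NUSAP1 had 227, 214 and 231 CPM with TEPA + IFN-γ and 315, 268 and 310 CPM with TEPA (log2 -0.41, SE 0.09). DLGAP5 had 128, 113 and 147 CPM with TEPA + IFN-γ and 217, 173 and 211 CPM with TEPA (log2 -0.63, SE 0.16, adjusted p = 0.00928). In all 3 genes the groups lay apart, and each passed in all 15 alternatives. For 15 members the TEPA + IFN-γ libraries lay wholly below those with TEPA, against 15.3% of all genes. With the replicate number as a block, 11 members passed in place of 3, though it is uncertain that the numbers pair these libraries. Without TEPA library 2, 17 passed, and without TEPA + IFN-γ library 3, 7 did. The shares of all genes called in these alternatives were not counted. TTK, the checkpoint kinase MPS1, had 112, 105 and 120 CPM with TEPA + IFN-γ and 170, 132 and 165 CPM with TEPA (log2 -0.47, SE 0.17, adjusted p = 0.0735 in edgeR), and was among the 11. Once the GC trend was removed, 14 were lower and 1, FOXM1 (0.22, SE 0.06), was higher, against 14% and 15.2% of genes. Neuroblastoma markers summed to 2010 to 2140 CPM with TEPA + IFN-γ and 2330 to 2510 CPM with TEPA, and STMN2 was lower (-0.66, SE 0.13). The leukocyte genes summed to 7.66 to 11 CPM with TEPA + IFN-γ and 1.35 to 3.56 CPM with TEPA. Of the 2 tested, CD68 was higher (2.43, SE 0.55) and PTPRC lower (-2.22, SE 0.62). Their part in the counts was not tested.

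Over the 3 IFN-γ comparisons, 30 of 40 members had a negative log2 fold change in each, against 39.1% of all genes, and 31 with the GC trend removed, against 36.8%. CCNB2 and NUSAP1 passed in all 3. Whether the IFN-γ effect differed with a chelator was tested as an interaction. Among the members and among all genes the count was 0 for DC and for TEPA (0% in either direction, edgeR), while 142 and 205 genes had an unadjusted p under 0.05. DESeq2 called 0 members as well. For CCNB2 the difference of effects was 0.17 with DC (95% interval -0.16 to 0.50) and 0.15 with TEPA (-0.19 to 0.48), and for DLGAP5 0.19 (-0.28 to 0.66) and 0.03 (-0.44 to 0.50). These intervals include differences as large as most of the changes seen, so the effects are not shown to be equal.

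**Figure D5:**
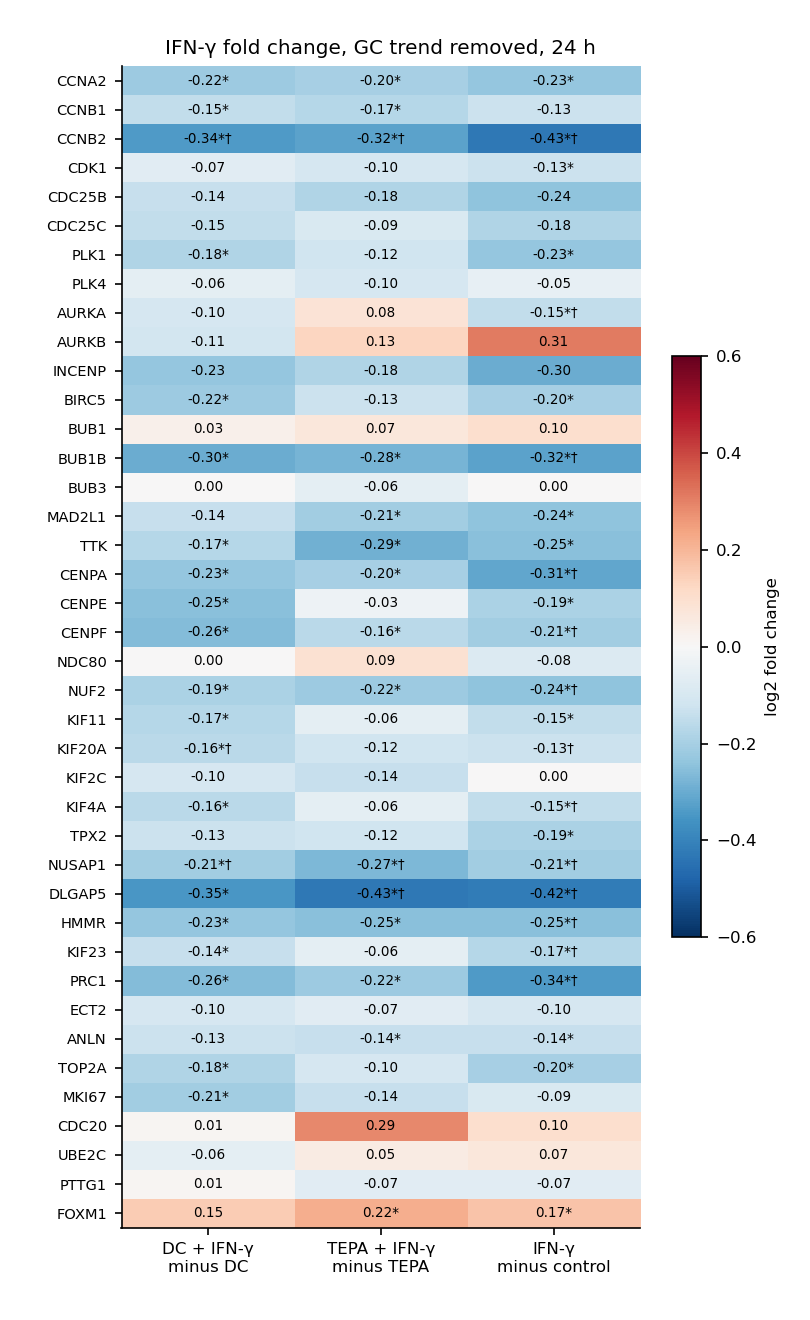
Log2 fold changes of the 40 members with IFN-γ in DC-treated, TEPA-treated and otherwise untreated cells at 24 h, in the fit with the GC trend removed. An asterisk marks an adjusted p under 0.05 in that fit and a dagger one in the main fit; CCNB2 (-0.34, -0.32 and -0.43) and DLGAP5 (-0.35, -0.43 and -0.42) have the lowest values of the 40 in each column.

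The chelators alone changed no member past the threshold at 24 h. With DC, 0 members were called in either direction, as were 0% of all genes lower and 0.0136% higher, and the median over the members was -0.10. The single member at an unadjusted p under 0.05 in edgeR was MKI67, with 911, 862 and 800 CPM under DC and 963, 915 and 1040 CPM in the control (log2 -0.18, 95% interval -0.34 to -0.02). Among all 14654 genes, 135 had an unadjusted p under 0.05 in either direction (edgeR). DESeq2 also called 0 members. CCNB2 had -0.13 (-0.37 to 0.10) and DLGAP5 -0.14 (-0.48 to 0.19).

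TEPA also gave 0 called members, beside 0.539% of genes lower and 0.519% higher, with a median of -0.05. At an unadjusted p under 0.05 in edgeR, 3 members were lower and 2 higher, beside 1426 of all 14654 genes in either direction. DESeq2 called 0 members. MKI67 had 902, 811 and 804 CPM with TEPA and 963, 915 and 1040 CPM in the control (log2 -0.21, SE 0.08, adjusted p = 0.268 in edgeR). KIF2C, a kinesin that depolymerises microtubules at kinetochores, had 117, 133 and 120 CPM with TEPA and 99.2, 109 and 101 CPM in the control, and its groups did not overlap (log2 0.26, SE 0.08, adjusted p = 0.184 in edgeR). With the GC trend removed, NUSAP1, NUF2, KIF2C and BUB3 were higher and MKI67 and PLK4 lower, at -0.20 to 0.24, when 4.81% of genes were called lower and 4.42% higher.

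CDKN1A, the CDK inhibitor p21, rose with TEPA although no member passed. It had 54.6, 81.9 and 66.9 CPM with TEPA and 19.9, 30.3 and 24.5 CPM in the control (log2 1.45, SE 0.24, adjusted p = 0.00388 in edgeR), with the groups well apart. BTG2, an antiproliferative protein, rose by 1.05 (SE 0.15). On top of IFN-γ, TEPA gave the same pair: CDKN1A was 1.32 higher (SE 0.24) and BTG2 1.19 (SE 0.16) with TEPA + IFN-γ than with IFN-γ alone. They come from a list of 24 regulators described below, of which 2 were higher and 0 lower in either comparison. Among all genes 0.519% were called higher with TEPA, and 0.757% with TEPA + IFN-γ against IFN-γ. BTG2 was also higher in untreated cells at 24 h than at 4 h (0.85, SE 0.16, adjusted p = 0.00194 in edgeR).

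Added to IFN-γ, neither chelator changed a member in the main fit. In DC + IFN-γ against IFN-γ, 0 members were called, with 0.00682% of all genes lower and 0.0136% higher, and the median was 0.00. MKI67 had 761, 692 and 756 CPM with DC + IFN-γ and 849, 898 and 914 CPM with IFN-γ (log2 -0.27, 95% interval -0.43 to -0.11, adjusted p = 0.95 in edgeR); it was the only member at an unadjusted p under 0.05. Among all 14654 genes, 336 were at such a p in that comparison, in either direction. In TEPA + IFN-γ against IFN-γ, 0 members were called, with 1.15% of genes lower and 0.757% higher. There 1 member was lower and 1 higher at an unadjusted p under 0.05 in edgeR, beside 1711 of all genes in either direction. DESeq2 called 1 member. MKI67 had 764, 717 and 769 CPM with TEPA + IFN-γ, below all 3 IFN-γ libraries (log2 -0.24, SE 0.08, adjusted p = 0.124). In the fit without the GC trend, MKI67 and PLK4 were lower and TOP2A, NUF2, KIF4A and NDC80 higher, when 7.12% of genes were called lower and 6.13% higher. DC, TEPA and IFN-γ share 1 set of control libraries, and both combinations share the IFN-γ libraries, so these values are not independent.

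The untreated cells of 24 h and of 4 h differed in 3 of 40 members, 2 higher and 1 lower at 24 h. Among all genes 5.9% were called higher and 3.79% lower, so members were called no more often than genes in general. KIF20A had 186, 192 and 181 CPM at 24 h and 151, 162 and 157 CPM at 4 h (log2 0.25, SE 0.05, adjusted p = 0.00484 in edgeR), and its groups lay apart. CENPF, at 0.45 (SE 0.14, adjusted p = 0.0473), had 1680, 1470 and 1730 CPM at 24 h and 1510, 1090 and 983 CPM at 4 h, and its groups overlapped. KIF2C was lower at 24 h (-0.27, SE 0.08, adjusted p = 0.0479). Without the GC trend 6 of 40 were higher and 6 lower, which is near the 12.9% and 13.7% of all genes. AURKB had a larger value that did not pass, with 14.5, 20.6 and 12.4 CPM at 24 h and 11.9, 32.3 and 40.3 CPM at 4 h (log2 -0.84, SE 0.39, adjusted p = 0.146 in edgeR). HMMR was at 0.52 (SE 0.17, adjusted p = 0.0582) and CENPE at 0.51 (SE 0.17, adjusted p = 0.0565). In a fit of only these 6 libraries 0 passed (edgeR). Leaving out 1 library, 26 passed without library 1 of 4 h, where the share of all genes called was not counted. The count was 0 without library 1 of 24 h or library 3 of 4 h, and 1 without library 3 of 24 h or library 2 of 4 h.

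Genes around the 40 were followed through further lists. Of 55 other mitosis genes, 4 fell and 0 rose with copper (median -0.21), against 3.2% of all genes lower and 2.65% higher, and with the GC trend removed 20 were lower and 3 higher (median -0.18), against 10.9% and 10.1%. KPNA2, a nuclear import factor, was at -0.59, CEP55, an abscission protein, at -0.52, and the condensin subunits NCAPD2 and NCAPH at -0.47 and -0.29. With IFN-γ 11 fell and 0 rose (median -0.24), against 8.8% and 10% of all genes, led by CKAP2L (-0.61), the condensin core SMC2 (-0.58) and the kinesin KIF14 (-0.57). Removing the GC trend gave 18 lower and 3 higher (median -0.10), against 15.4% and 17.1%. CKS1B, a CDK-binding subunit, was higher with TEPA (0.26), with TEPA + IFN-γ against IFN-γ (0.35) and with DC + IFN-γ against DC (0.22). Of 30 genes of G1/S and DNA replication, 7 fell and 0 rose with copper (median -0.20), against 3.2% and 2.65% of all genes. FEN1, a flap endonuclease, was at -0.72, RRM2, a ribonucleotide reductase subunit, at -0.62, UNG at -0.54 and PCNA at -0.51. In the fit with the GC trend removed 10 were lower and 3 higher (median -0.15), against 10.9% and 10.1%. With IFN-γ 2 of 30 fell, RRM2 (-0.49) among them, and 0 rose (median -0.13), against 8.8% and 10% of all genes. These genes were thus called lower with IFN-γ no more often than genes in general. With the GC trend removed 6 were lower and 0 higher (median -0.06), against 15.4% and 17.1%.

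Spindle, cohesin and anaphase-promoting complex genes that are not known as periodic gave 0 of 20 called with copper (median -0.03). With IFN-γ 1 rose, the dynein heavy chain DYNC1H1 (0.79, SE 0.12). These counts also moved with the GC trend removed, to 3 lower and 1 higher with copper and to 4 lower and 3 higher with IFN-γ. Over all genes 3.2% were called lower and 2.65% higher with copper, and 8.8% and 10% with IFN-γ. With the GC trend removed these shares were 10.9% and 10.1% with copper, and 15.4% and 17.1% with IFN-γ. The counts of this list and of the next are to be read beside them. Of 24 regulators of mitotic entry and of the late cell-cycle programme, 1 rose and 3 fell with copper, and 5 were higher and 2 lower with the GC trend removed. GADD45A, a stress protein that inhibits CDK1, was 1.28 higher (SE 0.20), and CDC25A, CDKN2C and TFDP1 were lower at -0.40, -0.39 and -0.31. With the GC trend removed GADD45A and CDC25A passed again. CDKN2C and TFDP1 then did not, at -0.51 and -0.27 (adjusted p = 0.103 and 0.133 in edgeR). CDKN1A had 40.7, 47.7 and 59.4 CPM with copper and 18.8, 31.2 and 41.3 CPM in the control, which overlap (log2 0.69, SE 0.24, adjusted p = 0.105 in edgeR). It was higher in each of the 3 same-numbered pairs, and with the GC trend removed it passed (0.66, adjusted p = 0.000119). With IFN-γ E2F4 rose (0.98, and 0.41 with the GC trend removed) and CCNG2 and CDKN3 fell (-0.60 and -0.45); the list then gave 3 higher and 4 lower with the GC trend removed, in place of 2 and 2. MYBL2, which turns MuvB into an activator, had 0.06 (SE 0.48) with copper and 0.67 (SE 0.49) with IFN-γ, and E2F1 0.11 (SE 0.43) with copper and 0.60 (SE 0.43) with IFN-γ. Both IFN-γ values turned negative with the GC trend removed, to -0.08 for MYBL2 and -0.25 for E2F1. WEE1, the kinase that holds CDK1 inactive, had -0.16 (SE 0.15) with copper and -0.33 (SE 0.15) with IFN-γ, and CDKN1B, the inhibitor p27, 0.12 (SE 0.14) with copper and -0.16 (SE 0.14) with IFN-γ. None of MYBL2, E2F1, WEE1 and CDKN1B passed.

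Set side by side, 8 of the 40 members passed at least 2 of the 9 comparisons of groups, 9 passed 1 and 23 passed none. The 5 members AURKA, BUB1B, CENPA, DLGAP5 and KIF20A, passed with both copper and IFN-γ, which is 62.5% of the copper calls and 38.5% of the IFN-γ calls. Over all genes, 114 were called lower in both, which is 24.3% of the 469 lower with copper and 8.84% of the 1290 lower with IFN-γ. These came from libraries of different times with no control in common. CCNB2 and NUSAP1 passed with IFN-γ and not with copper, where they had -0.08 and -0.13, and MKI67, BUB1 and PTTG1 passed with copper and not with IFN-γ; the difference between the effects of copper and IFN-γ was not tested.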

How the data were processed

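Polyadenylated RNA of SH-SY5Y cells was sequenced from stranded libraries, per the labels' protocols. Reads were aligned to hg38 with STAR 2.5a and quantified with RSEM 1.2.31, per the submitters' processing notes; the annotation and strand setting are not given in the sources used here. The deposited values are whole-number counts per gene, whose 24 single-library lists equal the columns of the deposited table. Counting error is small at these depths, and the 3 libraries per group limit the precision.

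The 40 members and the gene lists were chosen with earlier results of these data known. Genes were kept with edgeR's filter (minimum count 10) and tested with edgeR 4.0.16 (quasi-likelihood, TMM factors, R 4.3.3) in 1 fit of 24 libraries with a mean per group and 16 residual degrees of freedom. P-values were adjusted by Benjamini-Hochberg over 14654 genes, with 0.05 as threshold. A prior count of 2 was used for the log2 levels of libraries, while fold changes kept edgeR's default. For the GC alternative, a lowess curve (span 0.3) on the GC content of the longest coding GENCODE 29 transcript was taken from each library as an offset, for the 93.7% of tested genes and all 40 members with a value. Only the main edgeR fit was tested on simulated data, for the copper and DC comparisons. Those data had the same dispersion for every gene and held no GC trend and no pairing. The alternative fits were not tested in that way. Other alternatives were DESeq2 1.42.0 with its size factors, limma-voom (limma 3.58.1), no filter, only the libraries compared, each library left out, and the replicate number as a block. Deviations of same-numbered libraries correlated above 0.1 in every pair for copper (0.87, 0.35 and 0.82), DC (0.15, 0.55 and 0.23), TEPA (0.36, 0.57 and 0.23) and TEPA + IFN-γ against TEPA (0.29, 0.56 and 0.23). The numbers were taken to pair those libraries on that ground alone. In none of these comparisons did each library correlate best with the library of its own number, so this pairing is uncertain. In pairs, log2 ratios used CPM plus 0.1.

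Values in every library are given for members listed by name, those called in at least 2 comparisons, and those with the largest fold changes. From other lists up to 4 called members with the largest fold changes are named, with CDKN1A, CDKN1B, MYBL2, WEE1 and E2F1 whatever their values. Some genes of these lists are not reported here.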

Additional observations from a re-analysis of the deposited data

How the results depend on the processing

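Members called were 8 with copper, but 23 with the GC trend removed (23 with replicate block and GC trend removed), 0 in only the libraries compared and 22 with replicate block in only those; 6 in a fit with both 4 h groups at libraries 2 and 3, chosen after seeing the data; and 5 to 16 leaving out 1 library (5 without copper library 3, 15 without copper library 1, 16 without control library 3). With TEPA the 0 became 6 with the GC trend removed, with or without replicate block. With IFN-γ the 13 became 23 in DESeq2, 24 with the GC trend removed, 32 in only the libraries compared, and 24, 27 and 33 with replicate block alone, with GC removal and in only those libraries; leaving out 1 library gave 5 to 24 (5 and 6 without IFN-γ libraries 1 and 2, 6 without control library 1, 24 without IFN-γ library 3). For TEPA + IFN-γ against IFN-γ the 0 became 1 in DESeq2, 6 with the GC trend removed, and 6 and 8 with replicate block plus GC removal or only the libraries compared. For DC + IFN-γ against DC the 3 became 6 in DESeq2, 21 with the GC trend removed, 1 with no filter, 11 in only the libraries compared, and 7, 21 and 1 with replicate block alone, with GC removal and in only those libraries; leaving out 1 library gave 1 to 3 (1 without DC + IFN-γ library 1). For TEPA + IFN-γ against TEPA the 3 became 11 in DESeq2, 15 with the GC trend removed, and 11, 18 and 20 with replicate block alone, with GC removal and in only those libraries; leaving out 1 library gave 3 to 17 (17 without TEPA library 2, 7 without TEPA + IFN-γ library 3). For untreated cells at 24 h against 4 h the 3 became 7 in DESeq2, 12 with the GC trend removed, 1 with no filter, 0 in only the libraries compared, and 7, 14 and 0 with replicate block alone, with GC removal and in only those libraries; leaving out 1 library gave 0 to 26 (26 without library 1 of 4 h; 0 without library 3 of 4 h or library 1 of 24 h; 1 without library 2 of 4 h or library 3 of 24 h). The counts of 0 for DC, DC + IFN-γ against IFN-γ and both interactions stayed at 0 in every alternative. Apart from the fit with only the GC trend removed, the share of all genes called was not counted in these alternatives. Whether members gained calls there beyond genes in general was not tested. The block changed no other call by over 1.5 times, and where the numbers do not pair the libraries it describes only shared numbers. With the GC trend removed, log2 fold changes turned sign for PLK1 (-0.23 with IFN-γ, also with replicate block; -0.18 in DC + IFN-γ against DC), and at 24 h against 4 h for KIF11 and KIF23 (-0.14 each) and MAD2L1 (-0.17), also with replicate block. CDC25B and INCENP, not called with IFN-γ, turned to -0.24 and -0.30 with GC removal alone and to -0.24 and -0.29 with replicate block too, and BUB1, also not called, to 0.10 with GC removal. For all of these the cause was not tested.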
